A study of Mus musculus with 12 samples.

Results

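The 8 acyl-CoA thioesterase genes Acot1, Acot2, Acot3, Acot4, Acot5, Acot8, Acot12 and Acot13 were followed through 12 mouse liver RNA-seq libraries, out of 31253 gene symbols with a value. They were taken by name, and all 8 were found. The livers came from male C57BL6 mice in 4 groups of 3 libraries. S302A livers after DEN (S302A_DEN) came from CUGBP1 s302a knock-in mice, in which 1 serine of the RNA-binding protein CUGBP1 (gene Celf1) is replaced by alanine, injected at 3 weeks of age with the liver carcinogen diethylnitrosamine (DEN) at 50 µg per g of body weight. Untreated S302A livers (S302A_Ctrl) carried the same knock-in. WT livers after DEN (WT_DEN) came from wild-type mice given the same dose, and untreated WT livers (WT_Ctrl) are their controls. The labels give sacrifice at 30 to 38 weeks and an age of 33 to 41 weeks. The first is read here as weeks after the injection. The same ranges stand for all libraries, so the age of a single library is unknown. The knock-in is a point change, so the level of a transcript does not check the genotype labels. Values are TPM, a relative transcript level corrected for transcript length, and no value in the files lies below 1, so a value of 1 is read as a floor, meaning 1 or less.

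Acyl-CoA thioesterases split the activated form of a fatty acid, its ester with coenzyme A, into the free fatty acid and coenzyme A. In mouse liver several of them belong to the set of genes switched on by PPARalpha, the nuclear receptor that senses fatty acids and controls their oxidation, for example during fasting or under fibrate drugs. The members differ in the compartment in which they work. Acot1 acts in the cytosol and Acot2 in mitochondria, and both prefer long-chain substrates. Acot3, Acot4 and Acot5 act in peroxisomes, where Acot4 prefers dicarboxylic substrates such as succinyl-CoA. Acot8 is a peroxisomal enzyme of broad range, Acot12 is a cytosolic acetyl-CoA hydrolase of the liver, and Acot13 (also called Them2) is a small thioesterase associated with mitochondria.

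In the GENCODE annotation of GRCm38 (mm10), 5 of the members lie side by side on the plus strand of chromosome 12, in the order Acot2 (chr12:83987861-83993873), Acot1 (chr12:84009490-84018371), Acot4 (chr12:84038379-84048601), Acot3 (chr12:84052144-84060402) and Acot5 (chr12:84069325-84076020). With the neighbouring gene Acot6 they make a run of 6 genes over 123.5 kb. Acot8 is on the minus strand of chromosome 2 (chr2:164792765-164804882). Acot12 (chr13:91741512-91786148, plus strand) and Acot13 (chr13:24817948-24831540, minus strand) are both on chromosome 13, far apart. The promoters of Acot1 to Acot4 are shown because these are the detected members of the chromosome 12 run, and that of Acot12 because it holds the closest match to a PPAR motif. The windows run from 250 bases before to 50 bases after the gene's start, on the gene's own strand, from RefSeq for GRCm38.p6. They are chr12:84009252-84009551 for Acot1, chr12:83987611-83987910 for Acot2, chr12:84051894-84052193 for Acot3, chr12:84038129-84038428 for Acot4 and chr13:91741271-91741570 for Acot12, all on the plus strand. Capitals mark a match to the motifs described after the sequences.
Acot1 promoter: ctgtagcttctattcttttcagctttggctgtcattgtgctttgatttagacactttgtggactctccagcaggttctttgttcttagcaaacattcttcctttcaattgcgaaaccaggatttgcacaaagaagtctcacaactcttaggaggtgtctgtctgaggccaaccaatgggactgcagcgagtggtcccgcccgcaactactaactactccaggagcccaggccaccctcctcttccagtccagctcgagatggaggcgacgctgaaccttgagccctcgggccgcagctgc
Acot2 promoter: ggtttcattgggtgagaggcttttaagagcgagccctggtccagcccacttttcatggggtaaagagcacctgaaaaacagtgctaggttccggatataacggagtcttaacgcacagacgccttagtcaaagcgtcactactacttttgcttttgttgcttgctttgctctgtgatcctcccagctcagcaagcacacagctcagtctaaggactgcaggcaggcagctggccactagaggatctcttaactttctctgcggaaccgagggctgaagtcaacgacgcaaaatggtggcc
Acot3 promoter: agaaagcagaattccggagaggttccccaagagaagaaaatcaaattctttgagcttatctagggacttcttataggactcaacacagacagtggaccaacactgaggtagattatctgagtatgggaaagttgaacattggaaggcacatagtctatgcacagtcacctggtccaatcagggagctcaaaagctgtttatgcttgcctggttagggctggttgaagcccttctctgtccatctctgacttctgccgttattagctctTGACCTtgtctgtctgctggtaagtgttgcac
Acot4 promoter: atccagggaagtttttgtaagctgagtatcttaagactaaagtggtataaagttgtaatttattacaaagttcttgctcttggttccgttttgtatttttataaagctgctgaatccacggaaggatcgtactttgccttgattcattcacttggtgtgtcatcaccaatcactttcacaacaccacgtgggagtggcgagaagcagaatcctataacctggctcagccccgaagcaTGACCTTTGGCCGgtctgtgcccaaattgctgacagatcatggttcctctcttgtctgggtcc
Acot12 promoter: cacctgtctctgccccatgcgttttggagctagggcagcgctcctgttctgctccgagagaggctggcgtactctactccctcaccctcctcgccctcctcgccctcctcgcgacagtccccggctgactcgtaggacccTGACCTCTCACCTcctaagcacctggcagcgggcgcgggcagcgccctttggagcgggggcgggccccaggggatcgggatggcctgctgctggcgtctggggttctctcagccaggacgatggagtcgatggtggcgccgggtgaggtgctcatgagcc

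PPARalpha binds DNA together with RXRalpha at direct repeats of the hexamer AGGTCA spaced by a single base. Both strands of the RefSeq promoters of 7 members were searched. The exact hexamer AGGTCA stood in the windows of 4 of the 7 (Acot3, Acot4, Acot5 and Acot12), against 16.3% of 32851 mouse promoter windows of the same length. The repeat AGGTCANAGGTCA, with up to 2 mismatches, stood in 2 of the 7, against 3.86% of all windows, and each of its matches here contains one of the hexamers. In Acot4 the match TGACCTTTGGCCG, read on the minus strand of the motif with 2 mismatches, begins 13 bases before the start. In Acot12 the match TGACCTCTCACCT, with 1 mismatch, begins 110 bases before it. These are descriptions of letters, and neither a match nor its lack in a window of this length says whether a factor binds.

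The ends of the coding sequences are shown because they set the peroxisomal members apart from the rest. Each run holds the last 60 coding bases before the stop codon, read from the transcripts of the same annotation, with the last 3 codons in capitals.
Acot1 coding end: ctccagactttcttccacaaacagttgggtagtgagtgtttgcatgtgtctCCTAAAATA
Acot2 coding end: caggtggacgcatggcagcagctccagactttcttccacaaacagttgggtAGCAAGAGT
Acot3 coding end: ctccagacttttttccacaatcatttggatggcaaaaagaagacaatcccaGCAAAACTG
Acot4 coding end: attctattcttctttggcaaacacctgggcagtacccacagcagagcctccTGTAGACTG
Acot5 coding end: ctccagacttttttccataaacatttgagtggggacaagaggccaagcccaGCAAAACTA
Acot8 coding end: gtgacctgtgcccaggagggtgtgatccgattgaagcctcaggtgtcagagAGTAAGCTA
Acot12 coding end: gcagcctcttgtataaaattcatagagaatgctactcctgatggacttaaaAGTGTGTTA
Acot13 coding end: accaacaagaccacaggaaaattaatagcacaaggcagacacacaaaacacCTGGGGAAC

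A peroxisomal targeting signal of type 1 is a short tripeptide at the very end of a protein. In mouse Acot3, Acot4, Acot5 and Acot8 the last 3 codons spell such a signal, and all 4 are peroxisomal enzymes. The coding sequences of Acot1 and Acot2 were identical at 1178 of 1236 aligned bases (95.3%), the highest of the 10 pairs in the cluster, followed by Acot3 and Acot5 at 85.8%. The lowest pair, Acot4 and Acot5, reached 74.6%. Of the distinct 31-base words in the transcripts of Acot2, 29.9% also occur in Acot1, and 19.8% of those of Acot5 occur in Acot3. Acot13 shares none with another gene. With any other gene, Acot2 shares 37.8% of its words, Acot3 25.2%, Acot1 22.8% and Acot4 17.9%. The single values of these genes, that of Acot3 included, may therefore depend on how shared reads are divided. Acot1 and Acot2, the closest pair, are less certain one by one than as a sum, and the sum is given beside them.

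Among the 12 libraries, replicate 3 of the S302A livers after DEN stood apart. Its rank correlation with the other 11 libraries lay between 0.912 and 0.931, against 0.948 to 0.973 for the 55 pairs without it, and 87% of the tested genes were higher in it than in both other libraries of its group. Summed markers of macrophages reached 935 TPM in it, against 124 to 316 TPM elsewhere, and those of stellate cells 255 TPM against 38.3 to 90.4 TPM. Markers of liver tumour and fetal liver summed to 876 TPM in it, against 13.1 to 44.3 TPM elsewhere. Cholangiocyte markers, of which 3 of 8 (Krt7, Cftr and Muc1) were at the floor in all libraries, summed to 69.2, 63.7 and 146 TPM in S302A livers after DEN, against 21.1 to 39.7 TPM in the other 9 libraries. Only 2 of the 8, Sox9 and Spp1, had a TPM above 1 in at least 3 libraries, so this sum says little about the cell type as a whole. Adipocyte markers were all at the floor. Hepatocyte markers, all 15 of them detected, summed to 74985 to 94991 TPM in S302A livers after DEN, 77849 to 89044 TPM in untreated S302A livers, 122678 to 138206 TPM in WT livers after DEN and 68063 to 107028 TPM in untreated WT livers. In bulk tissue, fewer cells of a type and less RNA per cell cannot be told apart. For S302A against WT after DEN, the members and the pathway lists are given with and without replicate 3. Other comparisons that include these libraries are given so only in part. The part of these markers in the results was not tested.

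Most of the summed level came from 3 genes outside the cluster. In untreated WT livers Acot13 averaged 106 ± 24.3 TPM, Acot12 38.3 ± 4.16 TPM and Acot8 11.7 ± 0.399 TPM (SD, n = 3). They were followed by Acot1 at 8.99 ± 2.50 TPM, Acot4 at 4.77 ± 1.45 TPM, Acot3 at 1.502 ± 0.746 TPM and Acot2 at 1.22 ± 0.295 TPM. The libraries of Acot8 and Acot1 overlapped in that group, as did those of Acot3 and Acot2, and all other neighbours in this order were separate. Acot5 was at the floor in all 12 libraries, so 7 of the 8 members passed the filter of a TPM above 1 in at least 3 libraries. In WT livers after DEN the order was another one, with Acot1 at 26.0 ± 13.7 TPM and Acot3 at 13.7 ± 7.18 TPM in a range that overlapped Acot8 (17.2 ± 1.82 TPM) or Acot4 (14.3 ± 2.27 TPM). The share of Acot1 to Acot4 in the summed level of all 8 members was 3.79%, 5.51% and 13.1% in the S302A livers after DEN and 11.1%, 10.5% and 8.13% in untreated S302A livers. It was 13.3%, 27.4% and 23.4% in WT livers after DEN, above the 10.3%, 8.82% and 9.04% of untreated WT livers in every library.

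**Figure D1:**
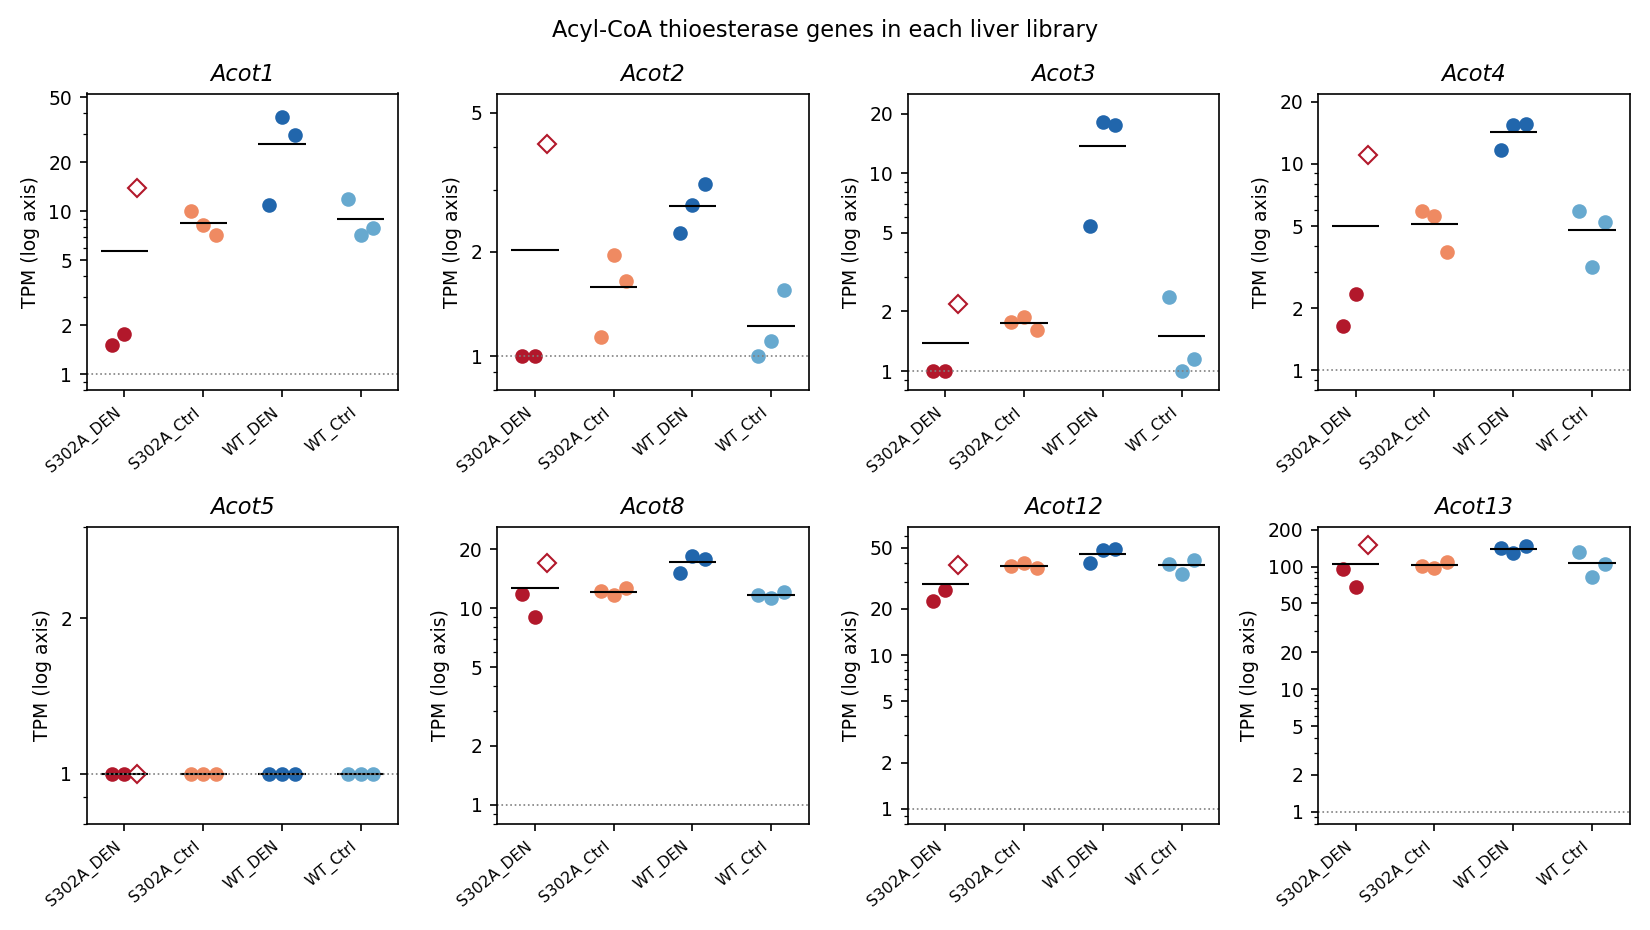
TPM of the 8 members in each library on a logarithmic axis, by group, with the arithmetic mean of each group as a line and the floor of 1 as a dotted line. The open diamond is replicate 3 of the S302A livers after DEN. For Acot1 to Acot4 the mean of the WT livers after DEN is the highest of the 4 groups, replicates 1 and 2 of the S302A livers after DEN lie below every untreated S302A liver, and the untreated groups of both genotypes overlap.

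Acot1 to Acot4, the detected members of the chromosome 12 run, had their highest group means in WT livers after DEN, as had Acot8, Acot12 and Acot13. In replicates 1 and 2 of the S302A livers after DEN, Acot1 to Acot4 were all below every untreated S302A liver, as were 15.4% of all tested genes. In replicate 3 these 4 genes were all above every untreated S302A liver, and the share of all tested genes with that pattern was not computed. Replicate 3 was high for most genes. It lay above replicates 1 and 2 for 87% of all tested genes. Its median-of-ratios scaling factor was 1.70, against 0.826 to 1.17 in the other 11 libraries. Of the 7 tested members, Acot3, a peroxisomal enzyme, was the one that passed the test with all libraries. It stood at 1.00, 1.00 and 2.17 TPM in S302A livers after DEN, and at 1.77, 1.88 and 1.61 TPM in untreated S302A livers. In WT livers after DEN it stood at 5.42, 18.1 and 17.6 TPM, against 2.36, 1.00 and 1.15 TPM in untreated WT livers. All 3 WT livers after DEN were above every other library, and replicates 1 and 2 of the S302A livers after DEN were at the floor. Values were compared on the log2(TPM + 1) scale with limma, with Benjamini-Hochberg adjustment over all 12120 tested genes and a threshold of 0.05. In WT livers Acot3 rose after DEN, by a log2 difference of 2.44 (SE 0.38, adjusted p = 0.0351). After DEN, Acot3 was lower in S302A livers than in WT livers, with a log2 difference of -2.50 (SE 0.38, adjusted p = 0.0172). By raw p, Acot3 was the 10th of the 12120 genes in the first comparison and the 16th in the second. These fits understate the change of a gene so close to the floor. Without S302A_DEN replicate 3 the difference after DEN was -2.72 (adjusted p = 0.00660) and that of DEN in WT 2.44 (adjusted p = 0.0152). Of 22 alternative fits, the rise in WT lost its call in 9, among them no filter (adjusted p = 0.394), median-of-ratios scaling (0.0513) and the fits without WT_DEN replicate 2 (0.107) or 3 (0.192), any single WT_Ctrl replicate (0.0505 to 0.134) or S302A_Ctrl replicate 3 (0.0532). The difference after DEN lost its call in 5, with no filter (adjusted p = 0.180), in the libraries of the contrast alone (0.154) and without S302A_DEN replicate 2 (0.0705) or WT_DEN replicate 2 (0.0807) or 3 (0.110).

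Acot4, the neighbour of Acot3 and also peroxisomal, had 1.64, 2.34 and 11.03 TPM in S302A livers after DEN, against 5.93, 5.60 and 3.75 TPM in untreated S302A livers. It had 11.7, 15.5 and 15.7 TPM in WT livers after DEN, against 5.94, 3.15 and 5.22 TPM in untreated WT livers. The WT groups did not overlap, and replicate 3 of the S302A livers after DEN lay well above the other libraries of its group and just below the WT livers after DEN. With all libraries the limma difference after DEN, S302A minus WT, was -1.68 (SE 0.46, adjusted p = 0.192), and DEN in WT gave 1.43 (SE 0.46, adjusted p = 0.364). Without replicate 3 both passed the threshold, at -2.35 (adjusted p = 0.00171) and 1.43 (adjusted p = 0.0180).

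Acot1, the cytosolic member and the most abundant of the cluster in most libraries, had 1.52, 1.78 and 13.8 TPM in S302A livers after DEN, against 10.1, 8.23 and 7.14 TPM in untreated S302A livers. In WT livers it had 10.9, 37.7 and 29.3 TPM after DEN, against 11.8, 7.20 and 7.93 TPM without it. Replicate 1 of the WT livers after DEN lay within the range of the untreated WT livers, and replicates 1 and 2 of the S302A livers after DEN were the lowest of all 12. The limma difference after DEN, S302A minus WT, was -2.36 (SE 0.60, adjusted p = 0.149), and -3.19 (adjusted p = 0.00337) without replicate 3. The effect of DEN in S302A livers was -1.0 (SE 0.60, adjusted p = 0.394) with all libraries, and -1.83 (adjusted p = 0.0444) without replicate 3. DEN in WT gave 1.30 (SE 0.60, adjusted p = 0.603), which also missed the threshold without replicate 3 (adjusted p = 0.0787).

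Acot2, the mitochondrial near-copy of Acot1, was close to the floor everywhere. It had 1.00, 1.00 and 4.06 TPM in S302A livers after DEN and 1.14, 1.96 and 1.64 TPM in untreated S302A livers. In WT livers it had 2.26, 2.71 and 3.13 TPM after DEN, above the 1.00, 1.11 and 1.56 TPM of untreated WT livers. Replicate 3 of the S302A livers after DEN held the highest value of all libraries. The Acot2 difference after DEN, S302A minus WT, was -0.43 (SE 0.31, adjusted p = 0.826), and -0.88 (adjusted p = 0.0169) without replicate 3. As a sum, which depends less on how shared reads are divided, Acot1 plus Acot2 came to 2.52, 2.78 and 17.9 TPM in S302A livers after DEN and 11.2, 10.2 and 8.79 TPM in untreated S302A livers. The sum was 13.2, 40.4 and 32.5 TPM in WT livers after DEN and 12.8, 8.31 and 9.48 TPM in untreated WT livers, so that in the WT groups the libraries did not overlap.

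**Figure D2:**
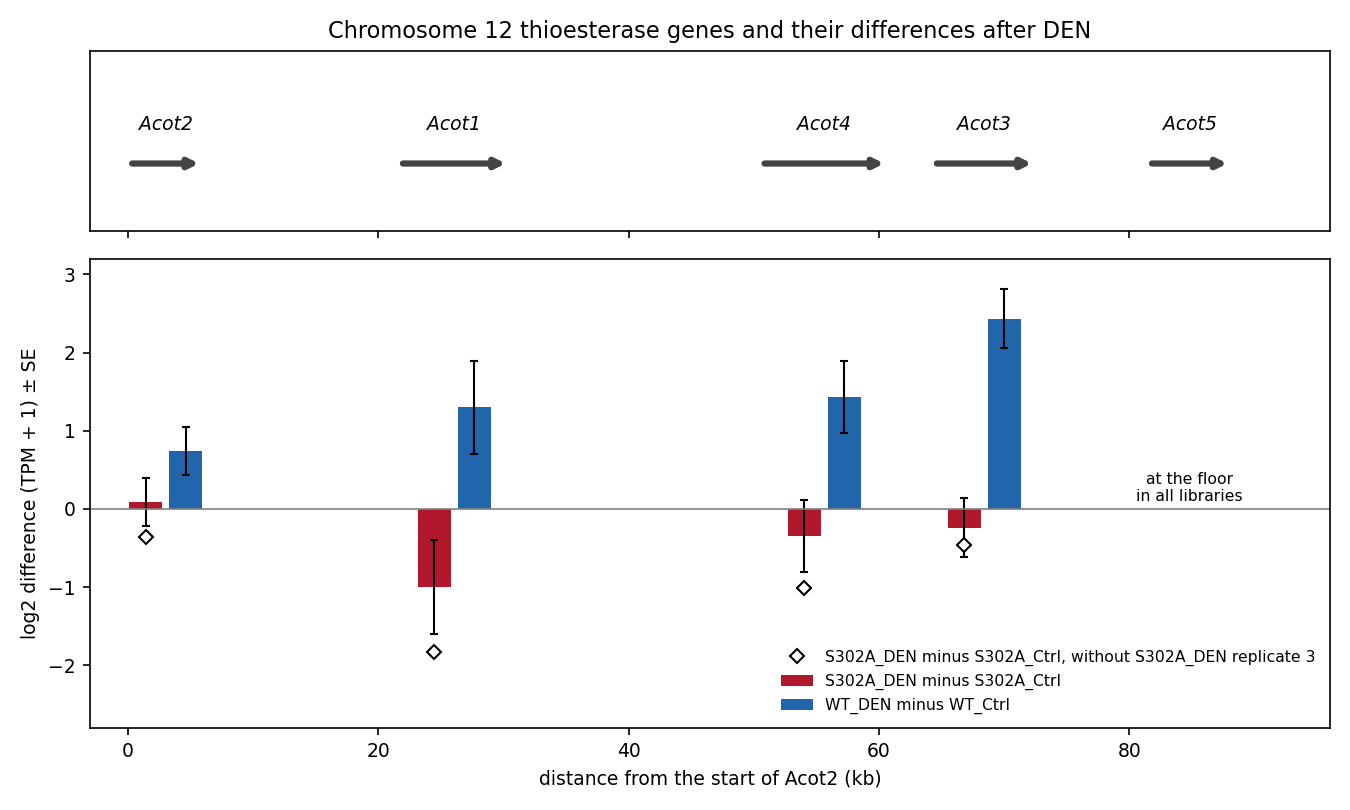
The chromosome 12 members drawn to scale by distance from the start of Acot2 in kb (top, arrows point in the direction of transcription), over their limma differences with standard errors on the log2(TPM + 1) scale (bottom). Bars give DEN minus untreated in S302A livers and in WT livers, and open diamonds the S302A difference without replicate 3. In WT the bars of Acot1 to Acot4 reach 0.74 to 2.44. In S302A their bars lie between -1.0 for Acot1 and 0.09 for Acot2, and limma called none of them. Without replicate 3 the S302A diamonds lie between -1.83 and -0.35, and only Acot1 of these genes was called by limma (adjusted p = 0.0444).

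Of the members outside the cluster, the peroxisomal Acot8 had 11.8, 9.03 and 17.05 TPM in S302A livers after DEN and 12.2, 11.7 and 12.6 TPM in untreated S302A livers. It had 15.1, 18.6 and 17.8 TPM in WT livers after DEN, above the 11.7, 11.3 and 12.1 TPM of untreated WT livers in every library. With all libraries DEN in WT gave 0.51 (SE 0.22, adjusted p = 0.573). The difference after DEN was -0.45 (SE 0.22, adjusted p = 0.685), and -0.67 (adjusted p = 0.0275) without replicate 3.

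Acot12, the cytosolic acetyl-CoA hydrolase, had 22.4, 26.5 and 38.5 TPM in S302A livers after DEN, against 38.2, 39.7 and 37.1 TPM in untreated S302A livers. WT livers had 39.5, 48.2 and 48.7 TPM after DEN and 39.4, 33.7 and 41.8 TPM without it. All 3 S302A livers after DEN were below all 3 WT livers after DEN, and replicates 1 and 2 were below every other library of the study. DEN in S302A gave -0.42 (SE 0.21, adjusted p = 0.336), and -0.63 (adjusted p = 0.0485) without replicate 3. DEN in WT gave 0.24 (SE 0.21, adjusted p = 0.881). The difference after DEN was -0.66 (SE 0.21, adjusted p = 0.301), and -0.87 (adjusted p = 0.0104) without replicate 3.

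Acot13, the most abundant member in every library, had 96.1, 68.4 and 150 TPM in S302A livers after DEN and 100, 97.9 and 109 TPM in untreated S302A livers. It had 142, 128 and 147 TPM in WT livers after DEN, against 131, 82.8 and 105 TPM in untreated WT livers. Within each genotype the groups with and without DEN overlapped, and replicate 3 of the S302A livers after DEN held the highest value of the study. The difference after DEN was -0.48 (SE 0.26, adjusted p = 0.727), and -0.77 (adjusted p = 0.0445) without replicate 3. Acot13 alone made up 47.5% to 70.4% of the summed TPM of the 8 members in single libraries.

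The question of the design, how the response to DEN differs between knock-in and wild-type livers, was put to the 7 tested members in each comparison. For DEN in WT, limma called 1 of 7 members, Acot3, among the 0.132% of all tested genes that were called in either direction. All 7 members were higher after DEN, as were 70.35% of all tested genes, with a median log2 difference of 0.74, against 0.13 over all tested genes. Non-overlapping libraries, all 3 after DEN above all 3 untreated, were seen for Acot2, Acot3, Acot4 and Acot8, 4 of 7, against 21.7% of all tested genes. Without S302A_DEN replicate 3, whose spread enters the pooled error of every comparison, 3 members were called (Acot2, Acot3 and Acot4), all higher, against 1.93% of all tested genes called higher.

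For DEN in S302A, limma called 0 of 7 members, against 0.619% of all tested genes. Of the members 0 had an unadjusted p under 0.05, against 1985 of the 12120 tested genes. Their median difference was -0.24, against 0.27 over all tested genes, with 5 of 7 lower, against 20.74% of all tested genes. Without replicate 3 limma called 2 of 7, Acot1 and Acot12, both lower, against 1.21% of all tested genes called lower, and the median was -0.46, against 0.00 over all genes. Replicates 1 and 2 were below all 3 untreated S302A livers for 6 of the 7 members, all but Acot8, against 15.4% of all tested genes. Acot2, Acot3 and Acot4 had both patterns, higher in every WT liver after DEN and lower in both of these S302A libraries, as did 2.38% of all tested genes.

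After DEN, S302A against WT, limma called 1 of 7 members, Acot3, against 0.38% of all tested genes. All 7 were lower in S302A, as were 39.98% of all tested genes, with a median of -0.66, against 0.07 over all tested genes. Without replicate 3 all 7 members were called lower, against 5.3% of all tested genes called lower, with a median of -0.88, against -0.20 over all genes, of which 79% were lower. That fit leaves replicates 1 and 2 as the S302A livers after DEN. All 7 members were highest within that group in replicate 3, as were 87% of all tested genes. Replicates 1 and 2 were below all WT livers after DEN for all 7 members, against 37.5% of all tested genes. With replicate 3 included, the groups did not overlap for Acot3, Acot4 and Acot12, 3 of 7, against 6.19% of all tested genes. This comparison shares the S302A libraries after DEN with the DEN comparison in S302A, and the WT libraries after DEN with that in WT, so these are not separate pieces of evidence. Of the hepatocyte markers 12 of 15 were lower in S302A than in WT after DEN, with a median of -0.54 with all libraries, or -0.33 without replicate 3, and their part in the members' difference was not tested.

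In untreated livers limma called 0 of 7 members between S302A and WT, against 0.033% of all tested genes. Of the members 0 had an unadjusted p under 0.05, against 179 of the 12120 tested genes. The differences lay between -0.06 for Acot1 and 0.21 for Acot2. The 95% intervals were -1.35 to 1.24 for Acot1, -0.65 to 1.00 for Acot3 and -0.45 to 0.46 for Acot12, so that for Acot1 a difference of more than 1 on the log2 scale in either direction lay within the interval. The interaction, which compares the DEN effect in S302A with that in WT, was negative for 7 of 7 members and 33.45% of all tested genes, and limma called 0 of them, against 0.0413% of all tested genes. An unadjusted p under 0.05 was reached by 4 of the 7 (Acot1, Acot3, Acot4 and Acot12), against 613 of the 12120 tested genes. The sizes were -2.67 for Acot3 (SE 0.54, adjusted p = 0.182), -2.30 for Acot1 (SE 0.84, adjusted p = 0.727) and -1.77 for Acot4 (SE 0.65, adjusted p = 0.727). Without replicate 3 the same 3 genes passed the threshold, at -2.89 for Acot3 (adjusted p = 0.0429), -3.13 for Acot1 (adjusted p = 0.0343) and -2.44 for Acot4 (adjusted p = 0.0136), all negative, against 0.463% of all tested genes called negative. For the DEN effect averaged over both genotypes, limma called 0 of 7 members, against 1.34% of all tested genes. Of the members 1 had an unadjusted p under 0.05, against 2353 of the 12120 tested genes. It was Acot3 at 1.10 (SE 0.27, adjusted p = 0.0654 by limma), or 0.99 (adjusted p = 0.0579) without replicate 3.

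**Figure D3:**
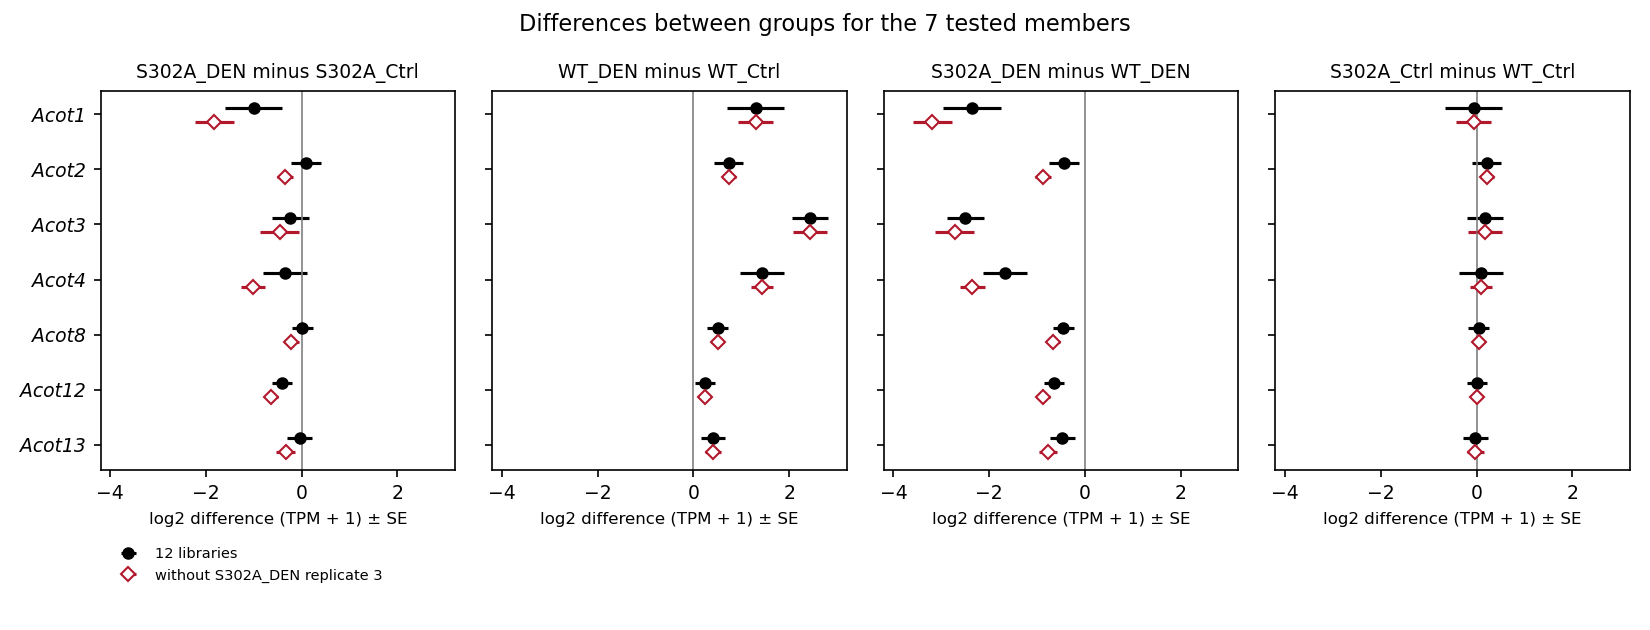
Limma differences of the 7 tested members on the log2(TPM + 1) scale, with standard errors as bars, for DEN in S302A, DEN in WT, S302A against WT after DEN, and S302A against WT untreated. Filled circles use all 12 libraries and open diamonds leave out S302A_DEN replicate 3. The untreated differences lie within -0.06 to 0.21, and those after DEN are all below 0.

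Rescaling the libraries by median-of-ratios factors brought the median difference of all tested genes to 0.01 for DEN in S302A and 0.00 for DEN in WT. Under that scaling Acot2 and Acot8 turned to -0.15 and -0.29 for DEN in S302A, so that all 7 members were lower, and Acot12 passed the threshold there (-0.73, adjusted p = 0.0401), 1 member of 7 against 2.68% of all tested genes called lower. After DEN, Acot1 (-2.45, adjusted p = 0.0427) and Acot4 (-1.75, adjusted p = 0.0296) passed it beside Acot3 (-2.53, adjusted p = 0.0143), 3 members of 7 against 1.32% of all tested genes called lower. The rise of Acot3 in WT was 2.33 and narrowly missed it (adjusted p = 0.0513).

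The other genes of acyl-CoA metabolism were read from lists by their step. For S302A against WT after DEN, their counts stand against 39.98% of all tested genes lower, 0.38% called and a median of 0.07 with all libraries. Their counts at an unadjusted p under 0.05 stand against 949 of the 12120 tested genes. Without S302A_DEN replicate 3 they stand against 79% lower, 5.3% called lower and a median of -0.20. In the peroxisome, 20 of 23 tested oxidation genes were lower in S302A than in WT after DEN, with a median of -0.68, and 2 were called. Hacl1, which shortens 2-hydroxy fatty acids, had 77.6, 51.1 and 85.6 TPM in S302A livers after DEN, against 187, 195 and 182 TPM in WT livers after DEN (-1.42, adjusted p = 0.0390 by limma). The groups did not overlap, as for 6.19% of all tested genes with S302A lower, and replicate 3 stood with its group. Untreated livers had 61.6, 80.3 and 51.4 TPM of Hacl1 in S302A and 111, 98.8 and 65.7 TPM in WT. Without replicate 3, 23 of 23 were lower, 13 of them called, with a median of -0.92. In mitochondria, 20 of 21 oxidation and ketogenesis genes were lower, with a median of -0.51. Limma called 0 of them, and 11 had an unadjusted p under 0.05. Without replicate 3, 21 of 21 were lower and 17 of them called, among them Hadh, a dehydrogenase of beta-oxidation, with a median of -0.77.

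Among 19 other tested PPARalpha targets, 15 were lower in S302A after DEN, with a median of -0.67, and 3 were called by limma. Without replicate 3, 18 of 19 were lower and 9 of them called, with a median of -0.97. Cyp4a10, a fatty acid omega-hydroxylase that opens the route to dicarboxylic acids, had 1.88, 4.09 and 41.6 TPM in S302A livers after DEN, against 91.9, 186 and 137 TPM in WT livers after DEN (-3.97, adjusted p = 0.0477, and -5.13, adjusted p = 0.000339, without replicate 3). Untreated livers of both genotypes held 46.3 to 124 TPM of it. Near-identical Cyp4a genes share reads, so its single value is uncertain. Mgll, which releases fatty acids from monoacylglycerol, had 32.3, 24.2 and 25.7 TPM in S302A livers after DEN, against 68.8, 75.1 and 80.8 TPM in WT livers after DEN (-1.43, adjusted p = 0.00864). Retsat, a retinol saturase, had 63.3, 76.2 and 128 TPM in S302A livers after DEN, against 240, 301 and 265 TPM in WT livers after DEN (-1.64, adjusted p = 0.0155). Fgf21, a liver hormone of fasting and stress, had 13.3, 5.84 and 73.0 TPM in S302A livers after DEN and 1.54, 2.51 and 2.09 TPM in untreated S302A livers, and 17.4, 9.43 and 5.24 TPM in WT livers after DEN and 1.35, 1.16 and 1.00 TPM in untreated WT livers. Its difference after DEN, S302A minus WT, was 0.87 (adjusted p = 0.846 by limma) with all libraries and -0.10 (adjusted p = 0.911) without replicate 3, its highest library. With all libraries it was the 1 listed target called by limma for the average DEN effect (2.49, adjusted p = 0.0339). Without replicate 3 Fgf21 was again called higher (2.00, adjusted p = 0.00611), and 3 others, Aldh3a2, Cyp4a10 and Cyp4a14, were called lower. Of all tested genes 4.14% were then called higher and 1.41% lower.

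Of 15 acyl-CoA synthetases and transporters, the enzymes that make the substrates of the thioesterases, 11 were lower in S302A after DEN with a median of -0.28. Limma called 0 of them, and 5 had an unadjusted p under 0.05. Of 14 genes of coenzyme A synthesis and breakdown 11 were lower with a median of -0.20. Here 0 were called by limma and 1, Pank1, had an unadjusted p under 0.05. Without replicate 3, 14 of 15 synthetases and transporters were lower and 4 of them called, with a median of -0.55. Of the coenzyme A genes 13 of 14 were then lower and 5 of them called, with a median of -0.49. Of 15 genes for PPARalpha and its partners 7 were lower, with a median of 0.00. None was called by limma, and 1 had an unadjusted p under 0.05, Ppara itself. Without replicate 3, 12 of 15 were lower, with a median of -0.12, and 1, Esrra, was called. Ppara, singled out after its values were seen, had 23.3, 21.6 and 24.2 TPM in S302A livers after DEN, against 39.5, 30.9 and 32.7 TPM in untreated S302A livers. It had 29.9, 42.0 and 51.4 TPM in WT livers after DEN, against 30.6, 24.2 and 33.0 TPM in untreated WT livers. The S302A groups did not overlap, and the limma difference after DEN, S302A minus WT, was -0.78 (SE 0.22, adjusted p = 0.208), or -0.81 (adjusted p = 0.0525) without replicate 3.

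Of the 10 other thioesterase genes tested, 6 were lower in S302A after DEN, with a median of -0.08. Limma called 0 of them, and 1, Acot11, had an unadjusted p under 0.05. Without replicate 3 all 10 were lower, against 79% of all tested genes, and 2, Lypla1 and Them4, were called, with a median of -0.40 against -0.20 over all tested genes. Them4 was also lower without DEN, at 12.5, 11.95 and 12.6 TPM in S302A livers and 15.8, 16.8 and 15.9 TPM in WT livers. These untreated groups did not overlap, as for 5.27% of all tested genes with S302A lower, and limma called 0 of the 10 genes there. Acot7, the long-chain thioesterase known best from brain, had 16.9, 11.97 and 30.7 TPM in S302A livers after DEN, 15.9, 13.0 and 12.3 TPM in untreated S302A livers, 20.5, 20.05 and 22.0 TPM in WT livers after DEN and 17.7, 13.5 and 10.98 TPM in untreated WT livers. Replicate 3 again held its highest value. For DEN in WT, 7 of 7 members, 20 of 23 peroxisomal, 21 of 21 mitochondrial and 19 of 19 other PPARalpha target genes were higher after DEN, against 70.35% of all tested genes, and Acot3 was the 1 gene called among them. Without S302A_DEN replicate 3 these 4 groups had 3, 3, 3 and 2 genes called higher, against 1.93% of all tested genes. Under the median-of-ratios scaling 7 of 7, 18 of 23, 17 of 21 and 18 of 19 were higher, against 49.36% of all tested genes, and Acot3 narrowly missed the threshold by limma (adjusted p = 0.0513). After DEN, that scaling left 21 of 23 peroxisomal and 21 of 21 mitochondrial genes lower in S302A than in WT, against 48.74% of all tested genes, with 9 called in each list, against 1.32%.

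**Figure D4:**
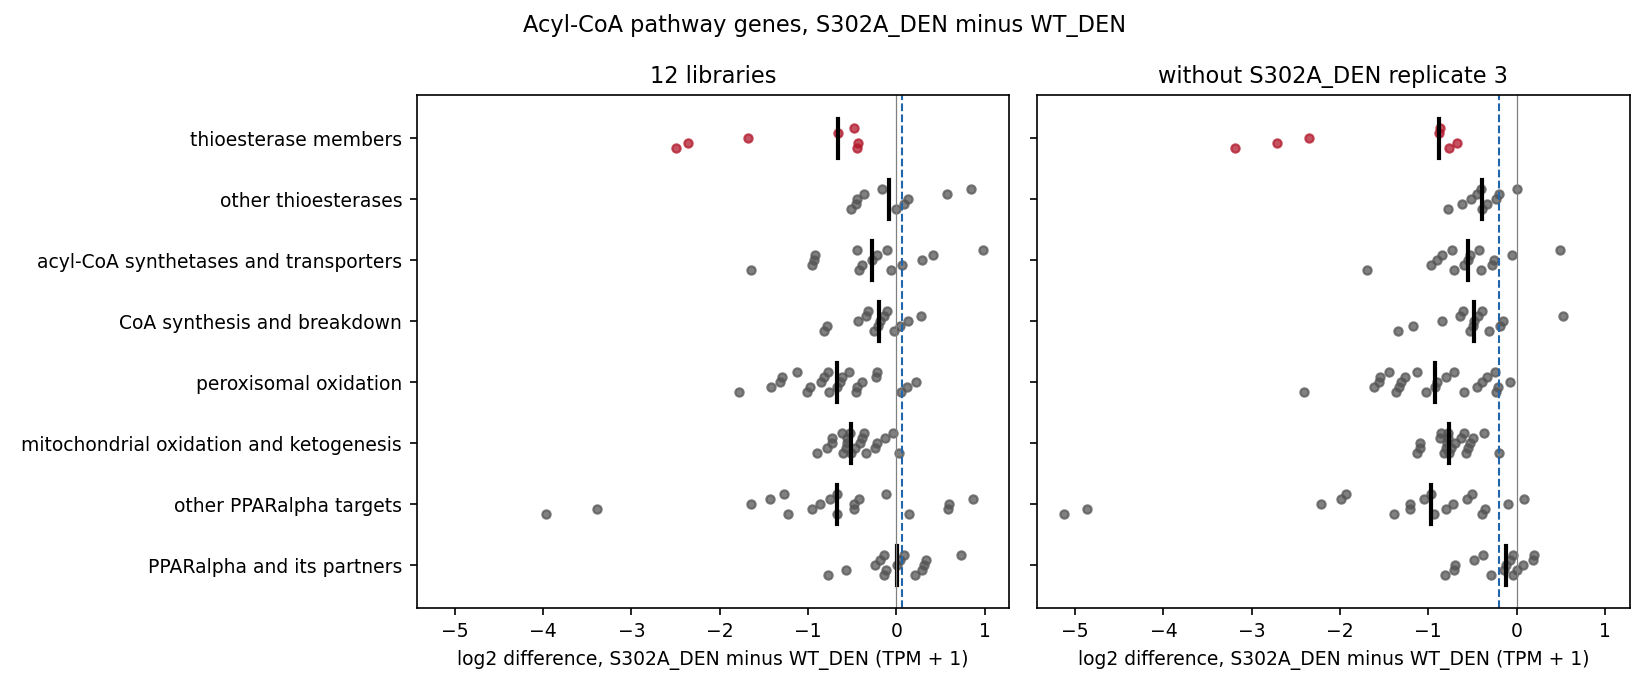
Limma differences after DEN, S302A minus WT, on the log2(TPM + 1) scale for the tested genes of 8 lists, each point a gene and each black bar the median of its list, with all 12 libraries (left) and without S302A_DEN replicate 3 (right). The dashed line is the median of all tested genes. The medians of the members, the peroxisomal list and the other PPARalpha targets are -0.66, -0.68 and -0.67, and that of PPARalpha and its partners is 0.00. Without replicate 3 they are -0.88, -0.92, -0.97 and -0.12, and the median of all tested genes is -0.20.

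Across the 12 libraries the members followed each other to unequal degrees. The Pearson correlation of log2(TPM + 1) was 0.926 between Acot1 and Acot4, 0.936 between Acot1 and Acot12 and 0.850 between Acot3 and Acot4 (Spearman 0.965). The lowest, between Acot2 and Acot12, was 0.624. The genes outside the family most like the members were Slc25a13 for Acot1 (0.957), Xrcc6bp1 for Acot2 (0.953), Caln1 for Acot3 (0.957), Acaa2 for Acot4 (0.953), Cyp4a10 for Acot12 (0.945) and Sirt7 for Acot13 (0.975). Over the 11 libraries without S302A_DEN replicate 3 the closest were Enpp3 for Acot1 (0.958), the peroxisome proliferation gene Pex11a for Acot2 (0.934), Cyp2d26 for Acot4 (0.960), Cks2 for Acot8 (0.978), the fatty acid transporter Slc27a2 for Acot12 (0.984) and Sirt7 for Acot13 (0.981). These points share 4 groups and 1 scaling, so the correlations describe the libraries and carry no test.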

How the data were processed

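Total RNA of 12 livers was sequenced on an Illumina HiSeq instrument after TruSeq library preparation, per the labels' protocols. The deposited values are TPM per gene symbol, estimated by the authors with kallisto, per the submitters' processing notes, which name the build mm10. The kallisto version and annotation are not given in the sources used here. TPM keeps no depth, so depth and counting precision are unknown. The column totals exceeded that of plain TPM by 16116 to 18237, and 17258 of 31253 symbols stood at 1 in all 12 libraries. No pair among the 66 library pairs was identical.

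Samples were grouped by the labels. Whether libraries came from separate animals is not stated in the labels, so p-values measure the spread between these samples, which may be technical. Genes with a TPM above 1 in at least 3 libraries (12120) were analysed as log2(TPM + 1) in limma 3.58.1 (R 4.3.3), in 1 model of the 4 groups with a mean-variance trend and 8 residual degrees of freedom. The 6 comparisons were DEN in each genotype, S302A against WT with and without DEN, the interaction and the average DEN effect. Tests were two-sided. Benjamini-Hochberg adjustment took in the whole table of tested genes, and an adjusted p below 0.05 was called. Named were all members, any other thioesterase, and from each pathway list the called genes and the 3 with the smallest p for average DEN, not all of which are printed. Results for some genes are not reported here. The members and lists were chosen with earlier results of these data known. The alternatives changed the pseudocount (0.5 or 0.1), the filter (none, or 5 TPM) or the scaling (median-of-ratios or quantile), or used robust moderation, library weights, a replicate block, the libraries of a contrast alone, or left out each library in turn. The script was tested on simulated data. RefSeq promoter windows matched 7 of 8 members. Shared 31-base words and coding identity were computed in Python 3.11.15 with biopython 1.88 from GENCODE transcripts. The word length is that of kallisto by default, and the authors' setting is not given in the sources used here.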

Additional observations from a re-analysis of the deposited data

How the results depend on the processing

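The members were refitted under 22 alternatives, with limma and Benjamini-Hochberg adjustment throughout. Of 904 values for single members, 811 kept their direction and their side of the threshold, 34 turned their sign, and 0 of the turned ones had been called with all libraries. The rise of Acot3 after DEN in WT kept its direction under all 22 alternatives and lost its call in 9, namely no filter (adjusted p = 0.394), median-of-ratios scaling (0.0513), the replicate block (0.0650), and the fits without S302A_Ctrl replicate 3 (0.0532), WT_DEN replicate 2 (0.107) or 3 (0.192), and WT_Ctrl replicate 1 (0.0505), 2 (0.134) or 3 (0.106). The lower Acot3 of S302A livers after DEN kept its direction in all 22 and lost its call in 5, namely no filter (adjusted p = 0.180), the libraries of the contrast alone (0.154), and the fits without S302A_DEN replicate 2 (0.0705) and WT_DEN replicate 2 (0.0807) or 3 (0.110). The cause was not tested.

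For DEN in S302A, members called numbered 1 under median-of-ratios scaling, 1 under quantile normalization and 3 with array quality weights, which gave S302A_DEN replicate 3 a weight of 0.0498, and 0 to 2 without each library in turn. For DEN in WT, they numbered 0 with no filter, 0 under median-of-ratios scaling, 2 in the libraries of the contrast alone, 6 with array quality weights and 0 with the replicate block, and 0 to 3 without each library. For S302A after DEN, they numbered 0 with no filter, 3 under median-of-ratios scaling, 3 under quantile normalization, 0 in the libraries of the contrast alone and 7 with array quality weights, and 0 to 7 without each library. For the interaction they numbered 6 with array quality weights and 0 to 3 without each library, and for average DEN 2 and 0 to 1. The replicate block changed no other call of a member. With array quality weights, 1609 of the 12120 tested genes were called for DEN in S302A and 2057 for DEN in WT. The alternatives other than leaving out a library called 4 to 1609 of all tested genes for DEN in S302A, against 75. They called 1 to 2057 for DEN in WT, against 16, and 4 to 1996 for S302A after DEN, against 46. For the interaction they called 4 to 508, against 5, and for average DEN 2 to 3176, against 162. Leaving out each library called 16 to 335 for DEN in S302A, 1 to 258 for DEN in WT and 6 to 700 for S302A after DEN. For the interaction it called 2 to 75, and for average DEN 17 to 1037.

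Directions turned only in differences that had not been called. For DEN in S302A, median-of-ratios scaling gave -0.15 for Acot2 and -0.29 for Acot8, quantile normalization -0.25 and -0.32, and array quality weights -0.35 and -0.077. Without each library in turn, that difference ran from -0.35 to 0.31 for Acot2, from -1.02 to 0.076 for Acot4, from -0.21 to 0.21 for Acot8 and from -0.33 to 0.23 for Acot13. In untreated livers, Acot1 and Acot13 turned to 0.022 and 0.059 under median-of-ratios scaling, 0.027 and 0.030 under quantile normalization and 0.052 and 0.058 with array quality weights. Without each library, the untreated difference ran from -0.19 to 0.14 for Acot1, from -0.13 to 0.26 for Acot4, from -0.083 to 0.068 for Acot12 and from -0.19 to 0.14 for Acot13. For average DEN, Acot1 and Acot13 turned to -0.080 and -0.052 under median-of-ratios scaling and -0.10 and -0.067 under quantile normalization, and Acot1 to -0.061 with array quality weights and to between -0.26 and 0.40 without each library.

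The labels number the libraries 1 to 3 in each group, but do not say whether the numbers pair them. Of 18 pairs of libraries with the same number, 5 had deviations from their group means correlated above 0.1, and the range was -0.19 to 0.28. With 3 libraries a group these correlations cannot settle whether the libraries are paired. With 3 libraries a group, values near the floor and depth unknown, small differences of Acot2 and Acot3 in untreated livers were not detectable.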

Other observations

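Some thioesterase genes outside the 8 members were high in S302A_DEN replicate 3 and in no other library. Acot9, a mitochondrial thioesterase, had 1.41, 2.42 and 26.4 TPM in S302A livers after DEN, against 1.96, 1.58 and 2.26 TPM in untreated S302A livers, 2.81, 1.91 and 2.50 TPM in WT livers after DEN and 2.53, 2.78 and 2.67 TPM in untreated WT livers. Them6 had 1.92, 2.41 and 20.1 TPM in S302A livers after DEN, against 1.46 to 3.47 TPM in the other 9 libraries. Acot10 was at the floor in all 12 libraries, and Acot6, the last gene of the chromosome 12 run, did not exceed 1.27 TPM. Acot11 was at the floor in S302A_DEN replicate 3 and at 1.30 to 2.91 TPM in the other 11 libraries.

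Within the chromosome 12 cluster, the mix of members differed between groups. Acot3 made up 19.4%, 16.3% and 6.98% of the summed Acot1 to Acot4 in S302A livers after DEN, where the summed level was 5.16, 6.12 and 31.1 TPM and the floor enters the first 2 shares, and 9.34%, 10.6% and 11.4% in untreated S302A livers. It made up 17.9%, 24.4% and 26.8% in WT livers after DEN, against 11.2%, 8.03% and 7.23% in untreated WT livers. The floor also enters the first 2 shares of the untreated WT livers, where Acot2 (replicate 1) and Acot3 (replicate 2) stood at 1.00 TPM. The summed level was 30.3, 74.0 and 65.8 TPM in WT livers after DEN, against 21.1, 12.5 and 15.8 TPM in untreated WT livers.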
